A study of Mus musculus with 4 samples.

Results

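The 10 potassium channel genes that carry the main repolarising currents of heart muscle were followed over 4 microarrays of mouse cardiomyocytes grown from embryonic stem cells. They were chosen by name for their role in the heart, not by a measured value: Kcnj2, Kcnj3, Kcnj5, Kcnj8, Kcnj11, Kcnq1, Kcnh2, Kcnd2, Kcnd3 and Kcnip2. All 10 had a probe on the array, out of 32800 genes and unnamed features, and 7 of the 10 were bright enough to be tested, among 20907 tested features of which 14982 had a gene name. The cells came from CGR8, a mouse embryonic stem cell line, and had been differentiated into cardiomyocytes. All were kept in DMEM-LG medium with 2% FBS and transfected with small interfering RNA by the Pepmute reagent for 48 h. The control group, siScr (2 arrays), received a scrambled RNA, and the siErbB4 group (2 arrays) received an RNA against Erbb4, the gene of a neuregulin receptor tyrosine kinase. Whether the 2 samples of a group were grown separately is not in the labels; a p-value below therefore reflects the scatter of these 4 samples alone, which may be technical. The sample labels also disagree in places: both siErbB4 samples are described with the scrambled RNA, ErbB5 stands in the source field of siErbB4 replicate 2, and an incubation of 6 or 24 h is mentioned without saying for which samples. Groups were taken from the sample titles. All cells are of 1 stem cell line, and no step of the labels selects cardiomyocytes from the other cells of the culture.

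Heart muscle cells use potassium channels to hold the resting potential and to end each action potential. Inward rectifiers, encoded by the Kcnj genes, set the resting potential (Kcnj2), answer to acetylcholine through G proteins (Kcnj3 and Kcnj5, mainly in atria and pacemaker tissue) or to the energy state of the cell (Kcnj8 and Kcnj11, the pores of the ATP-sensitive channels). Kcnq1 and Kcnh2 form the slow and rapid delayed rectifiers that repolarise the membrane, and loss of either causes long QT syndrome in humans. Kcnd2 and Kcnd3 form the fast transient outward channel, with Kcnip2 as its cytoplasmic partner, which shapes early repolarisation and is prominent in the rodent ventricle.

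For 8 of the 10 genes RefSeq gave a window of 250 bases before the transcription start (build GRCm38.p6). Windows are shown for 3 genes with higher values on the arrays numbered 2 (Kcnj3, Kcnj5 and Kcnh2) and for both Kcnd genes, whose values were lower there, so that the letters of the start regions can be set side by side. They read 5′ to 3′ on the strand of the gene, and capitals mark GGGCGG, the GC box that transcription factors of the Sp family bind. The windows lie at chr2:55435720-55435969 (plus strand, Kcnj3), chr9:32344345-32344594 (minus strand, Kcnj5), chr5:24329592-24329841 (minus strand, Kcnh2, inside the annotated gene), chr6:21215096-21215345 (plus strand, Kcnd2) and chr3:105451640-105451889 (plus strand, Kcnd3).
Kcnj3: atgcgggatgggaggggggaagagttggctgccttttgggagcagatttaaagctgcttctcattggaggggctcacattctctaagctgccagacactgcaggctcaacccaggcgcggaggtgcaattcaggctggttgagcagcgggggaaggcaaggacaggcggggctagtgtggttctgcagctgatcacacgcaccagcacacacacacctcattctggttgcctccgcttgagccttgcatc
Kcnj5: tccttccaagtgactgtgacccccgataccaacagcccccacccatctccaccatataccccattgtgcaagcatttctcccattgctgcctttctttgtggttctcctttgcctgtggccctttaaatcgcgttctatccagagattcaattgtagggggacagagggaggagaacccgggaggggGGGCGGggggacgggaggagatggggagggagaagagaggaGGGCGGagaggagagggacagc
Kcnh2: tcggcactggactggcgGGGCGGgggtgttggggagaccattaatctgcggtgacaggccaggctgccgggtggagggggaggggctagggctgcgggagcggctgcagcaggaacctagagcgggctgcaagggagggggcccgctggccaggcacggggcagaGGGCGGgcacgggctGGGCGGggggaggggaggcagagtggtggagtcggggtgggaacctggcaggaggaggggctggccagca
Kcnd2: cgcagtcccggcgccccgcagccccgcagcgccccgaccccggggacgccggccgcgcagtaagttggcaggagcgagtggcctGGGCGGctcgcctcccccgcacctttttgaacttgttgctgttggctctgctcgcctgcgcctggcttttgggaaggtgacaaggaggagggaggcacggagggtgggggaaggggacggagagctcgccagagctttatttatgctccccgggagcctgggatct
Kcnd3: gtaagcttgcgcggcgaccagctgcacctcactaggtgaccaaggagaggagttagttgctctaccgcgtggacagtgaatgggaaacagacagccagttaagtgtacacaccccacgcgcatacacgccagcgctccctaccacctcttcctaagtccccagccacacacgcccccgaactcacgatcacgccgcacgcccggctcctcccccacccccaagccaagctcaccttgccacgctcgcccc

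On either strand, GGGCGG occurred 3 times before Kcnh2, 2 times each before Kcnj2, Kcnj5 and Kcnip2, 1 time before Kcnd2, and 0 times before Kcnj3, Kcnj8 and Kcnd3. Of all 32841 RefSeq windows of this length, 32.7% held it. TATAAA, the TATA box, was in 0 of the 8 windows, against 12.4% of all windows. GATAA, read by GATA factors, was in the Kcnj2 window only (22.6% of all), and AAGTG, read by NK-2 factors such as Nkx2-5, was in those of Kcnj5, Kcnj8, Kcnd3 and Kcnip2 (40.7% of all). CANNTG, the E-box, which overlaps AAGTG in the string CAAGTG, was in all but those of Kcnh2 and Kcnd2 (66.2% of all). The GC content ran from 49.2% before Kcnj8 to 73.6% before Kcnh2, with a median of 52.4% over all windows.

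Levels are given as log2 of the scanner's processed signal minus the 75th percentile of that array, so that 0 is the 75th percentile of the array. That percentile lay between 878 and 989 signal units on the 4 arrays, 64.7% to 68.5% of probes were well above background, and 0 spots were saturated. Probes well above background reached down to 9.63 to 12.0 units, which sets the floor for dim genes. All 8 cardiomyocyte marker genes, among them Tnnt2, Myh6, Ryr2 and Nkx2-5, were well above background on all 4 arrays. Erbb4 could not check the knockdown: its probe was too dim to be tested, with levels of -6.78 and -6.20 in siScr and -8.38 and -5.96 in siErbB4. All 4 arrays were on 1 slide. The arrays numbered 2 sat at positions 1 and 2 and those numbered 1 at positions 3 and 4, so replicate number and slide position cannot be told apart.

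Kcnj5, Kcnj3, Kcnj11, Kcnq1, Kcnh2 and Kcnd3 had a probe well above background on all 4 arrays, and Kcnd2 on 3 of 4. Kcnj2 was above it on siScr replicate 1 only. Kcnj8 and Kcnip2 were above it on 0 of 4. Levels of different genes were read by different probes and are not ranked against each other.

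**Figure D1:**
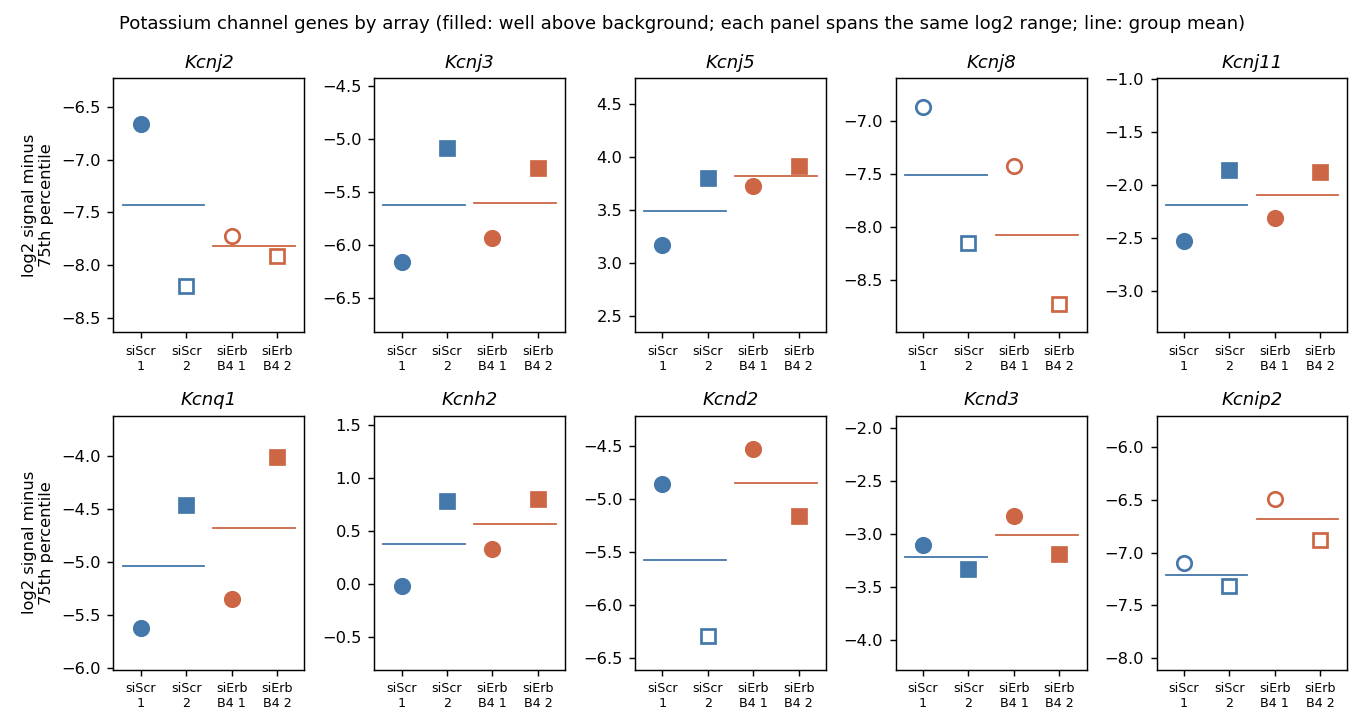
Level of each of the 10 genes on each of the 4 arrays (log2 of processed signal, scaled to the 75th percentile of its array), with circles for replicate 1, squares for replicate 2, a line at each treatment's mean, and open symbols where the probe was not well above background. In 5 tested genes both arrays numbered 2 lie above both numbered 1, as for Kcnq1 at -4.46 and -4.01 against -5.62 and -5.35, and in Kcnd2 and Kcnd3 they lie below.

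The first comparison asked whether the RNA against Erbb4 changed channel expression. None of the 7 tested genes passed limma's moderated test at an adjusted p (Benjamini-Hochberg) of 0.05; across all features 0 of 20907 (0%) did, with 374 at an unadjusted p under 0.05 and a lowest adjusted p of 0.574. All 7 log2 differences were above 0, from 0.02 for Kcnj3 to 0.73 for Kcnd2. Kcnd2 was tested only because both siErbB4 arrays were well above background. The median of the 7 was 0.21, beside -0.01 over all features. Of all 20907 features, 9850 had a difference above 0 and 11057 below. Kcnj3, Kcnj11, Kcnq1 and Kcnh2 turned below 0 without siScr replicate 1 (-0.52, -0.24, -0.22 and -0.22) or without siErbB4 replicate 2 (-0.31, -0.12, -0.31 and -0.05). In 0 of the 7 did the siErbB4 arrays lie wholly apart from the siScr arrays; over all features siErbB4 lay wholly higher in 13.1% and wholly lower in 15.9%. With 2 arrays against 2, an exact permutation test of a value cannot go below p = 0.333.

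The second comparison set the 2 arrays numbered 2 against the 2 numbered 1, over both RNAs. It bears on how far the cultures or hybridisations differed apart from the treatment. The scatter in this fit is that between the 2 treatments at each replicate number. An exact permutation test cannot go below p = 0.333 in this comparison either. Here 2 of the 7 genes were called, Kcnj3 and Kcnq1, both higher in replicate 2. Over all features 2.87% were called higher and 2.32% lower in replicate 2, 1087 in all. That total was 0 without siScr replicate 1 or siScr replicate 2, 68 without siErbB4 replicate 2 and 1552 without siErbB4 replicate 1, and 1885 with normexp background correction. The median over the 7 genes was 0.56, and 0.02 over all features. The 2 replicate numbers did not overlap in any of the 7: 5 genes were wholly higher and 2 wholly lower in replicate 2, where all features gave 29.4% higher and 26% lower. A separation without overlap was therefore common across the array.

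**Figure D2:**
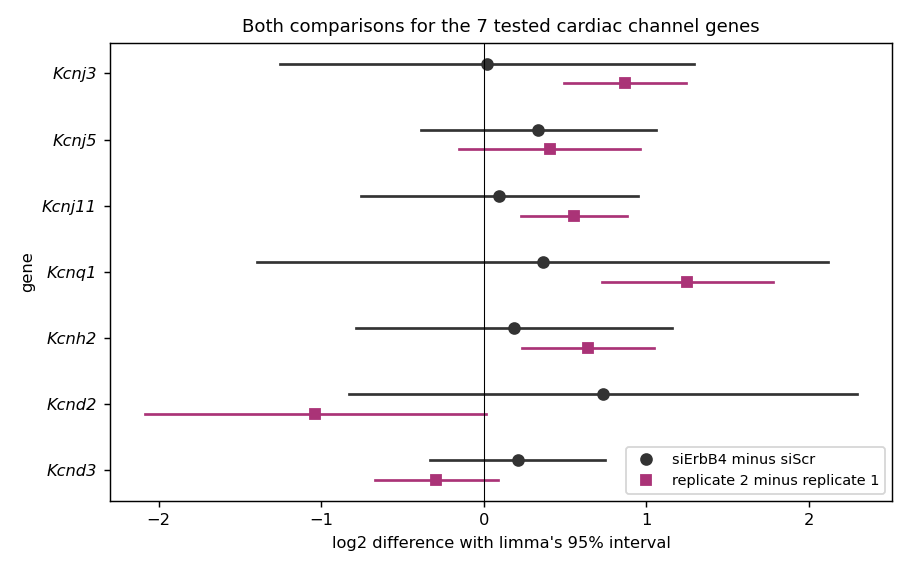
Log2 difference with its 95% interval for each of the 7 tested genes, as circles for siErbB4 minus siScr and as squares for replicate 2 minus replicate 1. The siErbB4 intervals of all 7 tested genes span 0, and in the replicate comparison those of Kcnj3 (0.49 to 1.24), Kcnj11 (0.23 to 0.88), Kcnq1 (0.73 to 1.78) and Kcnh2 (0.24 to 1.05) do not.

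Among the inward rectifiers, Kcnj3, a subunit of the acetylcholine-activated channel, was higher on the arrays numbered 2 of both treatments. Its level was -6.17 and -5.09 on siScr replicates 1 and 2, and -5.94 and -5.28 on siErbB4 replicates 1 and 2. Both arrays numbered 2 were the high ones. In processed signal the values were 13.8, 25.8, 15.4 and 24.1 units in the same order, not far above the floor. The difference between replicate numbers was 0.87 on the log2 scale (SE 0.14, limma adjusted p 0.0471), which is 1.83-fold, with 2.11-fold in siScr and 1.58-fold in siErbB4. A second Kcnj3 probe gave 11.4, 23.9, 11.7 and 25.9 units and was well above background on the arrays numbered 2 only. It failed the filter, and its signals on the arrays numbered 1 are only upper bounds. No fold is therefore read from it, and it is not a second reading of the difference. With normexp background correction the first probe's difference was 0.21 (limma adjusted p 0.386), and the call was lost with treatment as a term (limma adjusted p 0.0503) and when siScr replicate 1, siScr replicate 2 or siErbB4 replicate 2 was left out (0.75 to 0.98 over the 4 omissions). No normexp value is given for the second probe.

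Between treatments Kcnj3 differed by 0.02 (SE 0.46, 95% interval -1.25 to 1.29). siErbB4 minus siScr was 0.23 among the arrays numbered 1 and -0.19 among those numbered 2, so its sign depended on the replicate.

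Kcnj5, the other subunit of that channel, had levels of 3.17 and 3.80 in siScr and 3.73 and 3.91 in siErbB4. The processed signals were 8910, 12231, 12512 and 14111 units. siScr replicate 1 was the lowest of the 4, and the treatments overlapped because siScr replicate 2 exceeded siErbB4 replicate 1. The treatment difference was 0.33 (SE 0.26, 95% interval -0.39 to 1.06), made of 0.56 in replicate 1 and 0.11 in replicate 2. The replicate difference was 0.41 (SE 0.21, limma adjusted p 0.342). With each array left out, the treatment difference ran from 0.02 (without siScr replicate 1) to 0.65 (without siScr replicate 2), and the replicate difference from 0.13 (without siScr replicate 1) to 0.68 (without siErbB4 replicate 1).

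Kcnj11, the pore of the ATP-sensitive channel of heart muscle, had levels of -2.53 and -1.86 in siScr and -2.32 and -1.88 in siErbB4. The arrays numbered 2 were again the higher pair, at 242 and 255 units against 171 and 189. The replicate difference was 0.56 (SE 0.12, limma adjusted p 0.0830), and with normexp it was 0.47 and called (limma adjusted p 0.0405). A second probe, also above background on all 4 arrays, gave 0.76 with 23.5, 43.6, 33.2 and 45.2 units. The treatment difference was 0.10 (SE 0.31, 95% interval -0.76 to 0.95).

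Kcnj2, the channel of the resting potential, gave 9.73, 2.99, 4.47 and 3.90 units on siScr replicates 1 and 2 and siErbB4 replicates 1 and 2. Only the first of these was well above background. Kcnj8, the other ATP-sensitive pore and common in vascular muscle, gave 8.47, 3.08, 5.50 and 2.21 units, none of them well above background. No difference is read from either gene, since a signal below background is only an upper bound. Values of alternative fits given further below for these genes describe the fit only.

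Of the delayed rectifiers, Kcnq1 was called between replicate numbers. Its level was -5.62 and -4.46 on siScr replicates 1 and 2, and -5.35 and -4.01 on siErbB4 replicates 1 and 2, or 20.1, 40.0, 23.2 and 58.3 units. Both arrays numbered 2 were above both numbered 1. The difference was 1.25 (SE 0.20, limma adjusted p 0.0453), 2.38-fold over both treatments, 2.25-fold in siScr and 2.53-fold in siErbB4. With normexp it was 0.52 and still called (limma adjusted p 0.0333). It lost its call with quantile normalization (1.28, limma adjusted p 0.0512) and when any of the 4 arrays was left out (1.03 to 1.48). Between treatments Kcnq1 differed by 0.36 (SE 0.64, 95% interval -1.39 to 2.12), with 0.28 in replicate 1 and 0.45 in replicate 2.

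Kcnh2, the rapid delayed rectifier, had levels of -0.03 and 0.78 in siScr and 0.32 and 0.80 in siErbB4, or 971, 1506, 1181 and 1633 units. siScr replicate 1 was the lowest array, and both arrays numbered 2 lay close together at the top. The replicate difference was 0.64 (SE 0.15, limma adjusted p 0.0961), with normexp 0.66 and called (limma adjusted p 0.0266), and it was also called without siErbB4 replicate 1 (0.82, limma adjusted p 0.0428). The treatment difference was 0.19 (SE 0.35, 95% interval -0.78 to 1.16), 0.35 in replicate 1 and 0.02 in replicate 2.

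The genes of the transient outward channel had lower values on the arrays numbered 2, though neither passed the test. Kcnd2 had levels of -4.86 and -6.30 in siScr and -4.53 and -5.16 in siErbB4. siScr replicate 2, at 11.2 units, was not well above background and stood lowest, against 34.1, 40.9 and 26.2 units elsewhere. The replicate difference was -1.04 (SE 0.40, limma adjusted p 0.221), and -0.16 with normexp. The treatment difference of 0.73 (SE 0.57, 95% interval -0.83 to 2.30) is taken in part against that signal below background, and Kcnd2 passed the filter only through siErbB4, where it was higher. The difference was 0.02 without siScr replicate 2, 0.33 among the arrays numbered 1 and 1.13 among those numbered 2, and 0.25 with normexp.

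Kcnd3 had levels of -3.11 and -3.34 in siScr and -2.83 and -3.19 in siErbB4, or 115, 87.0, 132 and 103 units. siErbB4 replicate 1 was the highest and siScr replicate 2 the lowest. The replicate difference was -0.29 (SE 0.14, limma adjusted p 0.317) and the treatment difference 0.21 (SE 0.19, 95% interval -0.33 to 0.75). With each array left out, the replicate difference ran from -0.43 (without siScr replicate 1) to -0.16 (without siErbB4 replicate 1), and the treatment difference from 0.03 (without siErbB4 replicate 1) to 0.39 (without siErbB4 replicate 2). A second Kcnd3 probe, with 5.05, 4.32, 7.88 and 5.68 units, was not well above background on any array. Kcnip2, the partner protein of both, gave 7.22, 5.51, 10.4 and 7.98 units, also not above background on any array, so its values have no order.

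**Figure D3:**
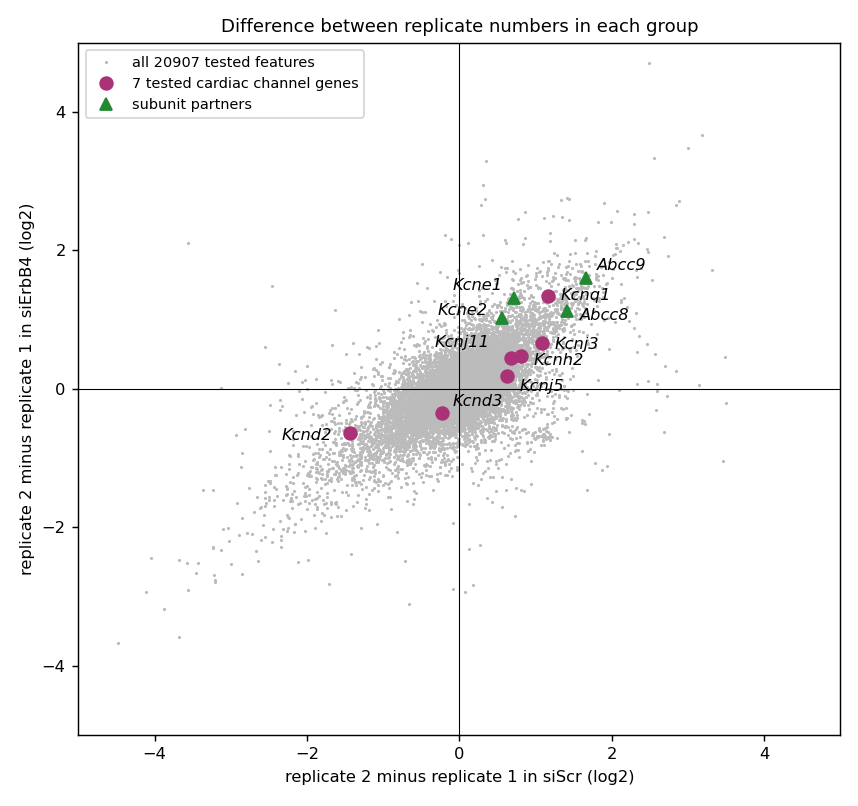
Replicate 2 minus replicate 1 in siErbB4 against the same difference in siScr (both log2), for all 20907 tested features in grey, the 7 tested channel genes as circles and 4 subunit partners as triangles. Kcnq1 lies at 1.17 in siScr and 1.34 in siErbB4 and Kcnd2 at -1.44 and -0.63, the first at the upper right and the second at the lower left.

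The partner subunits of these channels were read from a list of 19 accessory genes, of which 12 were tested. The list was drawn up with earlier results of these data known. In the treatment comparison 0 of the 12 were called (median -0.002), with the lowest p at Kcnmb4, a beta subunit of the calcium-activated big-conductance channel (-0.39), and Akap9, the anchoring protein of the Kcnq1 complex (0.16). In the replicate comparison 2 were called higher and 0 lower in replicate 2, with a median of 0.28. The shares over all features were 2.87% higher and 2.32% lower, with a median of 0.02. These were Abcc9 and Abcc8, the sulfonylurea receptors that assemble with Kcnj11 and Kcnj8.

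Abcc9 had levels of -4.86 and -3.19 in siScr and -4.74 and -3.13 in siErbB4. The pairs did not overlap, and the difference was 1.64 (SE 0.11, limma adjusted p 0.0189; 0.76 with normexp). Abcc8 had levels of -1.04 and 0.37 in siScr and -0.88 and 0.25 in siErbB4, with a difference of 1.27 (SE 0.12, limma adjusted p 0.0221). Both calls were lost without siScr replicate 1, siScr replicate 2 or siErbB4 replicate 2, with values of 1.58 to 1.70 for Abcc9 and 1.19 to 1.35 for Abcc8 over the 4 omissions. The treatment differences of both were close to 0, at 0.09 (SE 0.82) for Abcc9 and 0.02 (SE 0.65) for Abcc8.

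Kcne1, the beta subunit that gives the Kcnq1 channel its slow gating, was well above background on 3 of 4 arrays and had a replicate difference of 1.02 (SE 0.21, limma adjusted p 0.0725). Kcne2, of the same small family and described as a partner of Kcnh2 and Kcnq1, had 0.79 (SE 0.17, limma adjusted p 0.0743). Neither was called, and both were higher on the arrays numbered 2 of each treatment. Kcne2 was called with normexp (0.50, limma adjusted p 0.0367) and Kcne1 without siErbB4 replicate 1 (0.73, limma adjusted p 0.0482), while Kcne1 was 0.28 with normexp. Their treatment differences were -0.27 (SE 0.54) for Kcne1 and 0.18 (SE 0.43) for Kcne2. The Kcne1 signal not well above background was that of siErbB4 replicate 1, at a level of -7.13. Kcne1 thus passed the filter only through siScr, where it was higher. Both of its differences are taken in part against that signal.

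The other pore-forming potassium channels made a list of 46, of which 28 were tested and 16 were not well above background on any array. Earlier results of these data were known when this list was drawn up. In the treatment comparison 0 of the 28 were called, with a median of -0.01; the lowest p belonged to Kcnj15 (-0.28), an inward rectifier, and Kcnc4 (-0.22), a fast voltage-gated channel that inactivates rapidly. Between replicate numbers 2 were called higher and 0 lower, beside 12 positive and 16 negative differences and a median of -0.09. Of all features, 2.87% were called higher and 2.32% lower, with 11076 positive and 9831 negative differences and a median of 0.02. Kcng2, a silent subunit that joins other voltage-gated channels, gave 1.07 (SE 0.11, limma adjusted p 0.0225), and Kcnn2, a small-conductance calcium-activated channel of atrial muscle, gave 0.71 (SE 0.11, limma adjusted p 0.0465). Both calls were lost without siScr replicate 1, siScr replicate 2 or siErbB4 replicate 2. Within treatments the list's median was -0.03 in siScr and 0.08 in siErbB4, on either side of 0.

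**Figure D4:**
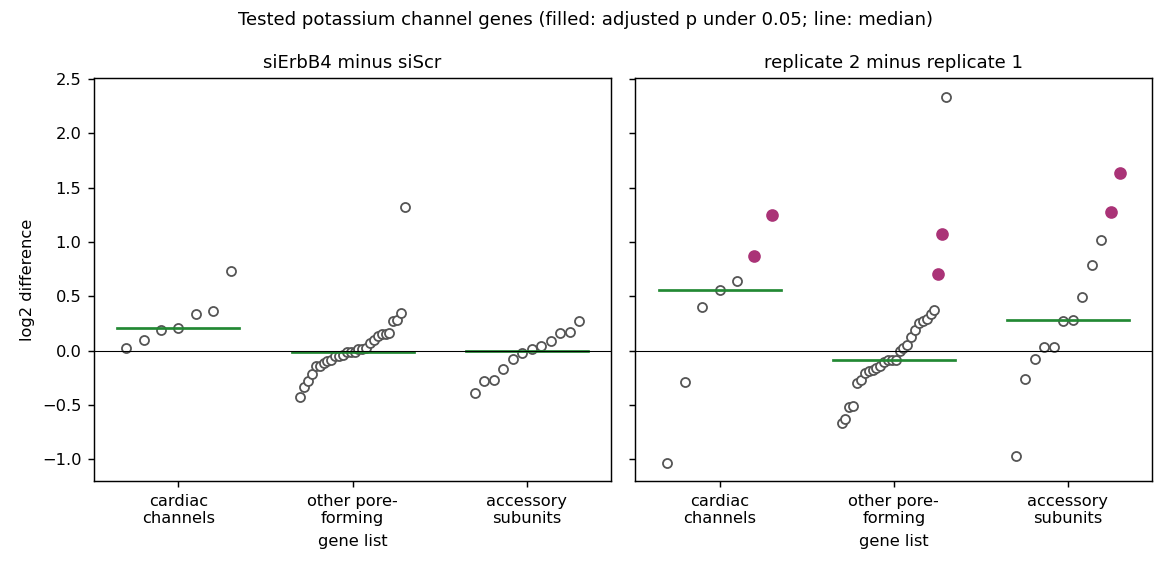
Log2 difference of each tested gene in the cardiac list (7), the other pore-forming list (28) and the accessory list (12), for both comparisons, with the median as a line and called genes filled. The replicate medians are 0.56, -0.09 and 0.28, and the treatment medians 0.21, -0.01 and -0.002.

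Markers of the cell types in such cultures moved with the replicate numbers as well. For scale, 2.87% of all features were called higher and 2.32% lower in replicate 2, with a median of 0.02. Their differences were positive in 11076 and negative in 9831. In bulk RNA, fewer cells of a type and less RNA per cell cannot be told apart. Cardiomyocyte markers had a median replicate difference of 0.41, with 7 of 8 positive and Ryr2 (0.69), the calcium release channel, and Tnni3 (0.97), cardiac troponin I, called higher. Their signals summed over the list, each relative to the array's 75th percentile, were 847 to 862 in replicate 1 and 984 to 1058 in replicate 2. Fibroblast markers had a median of -1.46, with 7 of 8 negative and 3 called lower, the matrix genes Col1a1 (-2.27) and Postn (-1.89) and the receptor gene Pdgfra (-0.73), and summed to 22.3 to 38.6 in replicate 1 and 6.85 to 8.91 in replicate 2. Smooth muscle and pericyte markers had a median of -0.78, all 7 tested negative and 2 called lower, Acta2 (-1.22) and Tagln (-1.04). In Cnn1 (-0.10) and Cspg4 (-0.08) the replicate numbers overlapped. The list summed to 428 to 541 and 238 to 245, mostly from Acta2 and Tagln, its brightest genes. Neuron markers had a median of -1.30, with 4 of 5 negative and 2 called lower, Stmn2 (-1.37) and Syt1 (-1.30). Elavl3 went the other way, at 0.97 (limma adjusted p 0.168), and the list summed to 13.8 to 18.9 and 7.49 to 10.6. Endoderm and hepatic markers had a median of 0.59, with 3 of 4 positive and 1 called higher, Afp at 0.65. Apob was at -0.48, and this list summed to 4.55 to 4.93 and 7.44 to 7.59.

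The remaining lists had medians of -0.48 for endothelial (sums 3.28 to 3.36 and 3.46 to 4.49), 0.01 for pluripotent (22.8 to 36.6 and 24.0 to 27.2) and 0.04 for macrophage markers (1.11 to 1.23 and 1.84 to 2.06). The 3 tested macrophage markers did not go one way: Lyz2, the lysozyme gene of myeloid cells and the only called gene of these 3 lists, was at 3.24 (limma adjusted p 0.0189), Adgre1 at -2.35 (limma adjusted p 0.0691) and Csf1r at 0.04. Adgre1 was well above background on only 3 of the 4 arrays, so its difference is taken in part against a signal below that mark. The defining markers Emcn (endothelial), Map2 (neuron) and Apoa1 (endoderm) were not well above background on any array. The part of these cell types in the Kcnj3, Kcnq1, Abcc8 and Abcc9 differences was not tested. Between treatments no marker list had a called gene, and the list medians ran from -0.47 for fibroblast to 0.38 for pluripotent markers.

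**Figure D5:**
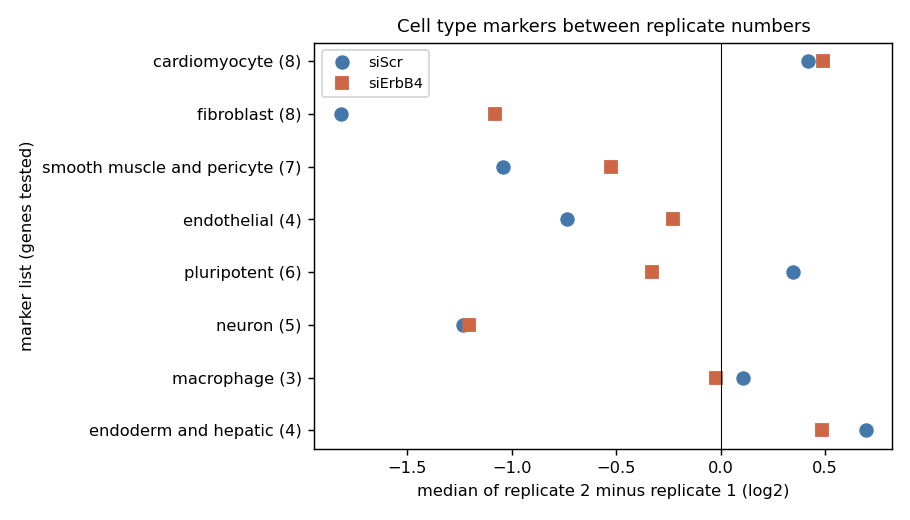
Median of replicate 2 minus replicate 1 (log2) over the tested genes of each of the 8 cell type marker lists, in siScr (circles) and siErbB4 (squares), with the number of genes tested in brackets. The fibroblast medians are -1.82 and -1.08 and the cardiomyocyte medians 0.42 and 0.49.

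Kcnq1 had the widest range over the arrays of the cardiac genes well above background on all 4, at 1.61. Among 14487 named genes well above background on all 4 arrays, those with levels most like it after each gene's mean was removed were Gtsf1 (root mean square distance 0.0411 on the log2 scale), Cenpk (0.0858) and Rhox2c (0.0862). Gtsf1 is a small RNA pathway factor of the germ line, Cenpk a centromere protein and Rhox2c a reproductive homeobox gene. Their replicate differences were 1.33, 1.34 and 1.30. With 4 arrays and this many genes, near matches of pattern are a description only.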

How the data were processed

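RNA from 4 samples (200 ng each, Cy3) was hybridised to 1-colour Agilent arrays, 1 array a sample and 2 a group, per the labels' protocols. The submitters' processing notes name Agilent Feature Extraction 10.7.1.1. The authors deposited scanner files whose processed signal is an intensity, background-subtracted by the scanner software per the file headers. The deposited value table holds log2 values, which matched the scaled signals below (correlation 1.0), with no centring of genes and medians of -3.81, -3.83, -3.84 and -3.86; no direction is involved.

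Here, control spots and outlier flags were left out, spots of a probe averaged, and log2 signal minus the array's 75th percentile taken. Probes were named by matching RefSeq accessions to a gene table (27508 of 39429 probes; 11921 kept as unnamed features). A probe was tested if well above background on both arrays of a group, and the brightest probe stood for its gene. The 3 dim genes were fitted without this filter. limma 3.58.1 in R 4.3.3 (lmFit, eBayes) compared treatments and replicate numbers, with Benjamini-Hochberg adjustment over 20907 features and a threshold of 0.05. The code was checked on simulated independent arrays of equal scatter. The differences planted there were larger than those of any cardiac gene, so the check says nothing of power in these data. The number of arrays limits precision. Alternatives were normexp (offset 50), quantile or median scaling, other filters, the mean of probes, the deposited table, replicate number or treatment as a term, and each array left out.

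Genes were named by rule: every cardiac gene, Erbb4, called genes of both channel lists or, with none called, the 2 of lowest p, the partners Abcc8, Abcc9, Kcne1 and Kcne2, and the 3 genes most like the widest-ranging cardiac gene. Marker genes serve as examples. The genes and lists were chosen with earlier results of these data known.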

Additional observations from a re-analysis of the deposited data

How the results depend on the processing

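Between treatments, 0 features, 0 cardiac genes and 0 genes of either channel list were called under every alternative run. Of the 113 alternative values of the cardiac genes in that comparison, 101 kept their direction and 12 reversed. Another filter or the replicate block left each gene's difference unchanged, as did the mean of probes for genes with a single kept probe. The deposited table holds the same signals. Part of the 101 was thus fixed in advance, as was direction in some values between replicate numbers below. Both sets of values also include Kcnj2, Kcnj8 and Kcnip2, whose values carry no direction. With normexp, Kcnj2 (0.23) and Kcnc4 (0.028) changed sign. With each array left out, the treatment difference ran from -1.15 to 0.38 for Kcnj2, -0.52 to 0.56 for Kcnj3, -1.22 to 0.088 for Kcnj8, -0.24 to 0.43 for Kcnj11, -0.31 to 1.03 for Kcnq1, -0.22 to 0.59 for Kcnh2, -0.69 to 0.72 for Abcc8, -0.75 to 0.92 for Abcc9, -0.93 to 0.39 for Kcne1 and -0.33 to 0.68 for Kcne2. The cause was not tested.

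Between replicate numbers, 102 of 120 alternative values of the cardiac genes kept direction and side of the threshold, 12 lost a call, 3 gained one and 3 reversed. Over all features the 1087 calls became 1885 with normexp, 0 without the filter and 0 to 1552 with an array left out. The 2 cardiac calls became 3 with normexp (Kcnq1, Kcnj11 and Kcnh2, with Kcnj3 lost), 1 with quantile normalization, 1 with treatment as a term, 0 without the filter and 0 to 2 with an array left out. The 2 calls of the other pore-forming list became 4 with normexp, 0 without the filter and 0 to 2 with an array left out, and the 2 of the accessory list 4, 0 and 0 to 4. Reversed values were Kcnj2 (0.10) and Kcnip2 (0.0064) with normexp, and Kcnip2 ran from -0.60 to 0.0013 with an array left out. An array that stands alone is assumed to vary like the others. The filter that follows the replicate number was chosen after seeing the data and changed no call of the cardiac genes.

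With the replicate block in the treatment fit, 0 features were called, 1564 had an unadjusted p under 0.05, and 0 of the cardiac genes were called. Deviations of same-numbered samples correlated at 0.678, but the labels do not pair them, and same-numbered arrays also sat at neighbouring slide positions. Near background, signal sets the limit: nearly all signals of Kcnj2, Kcnj8 and Kcnip2 are only upper bounds, so the values given here for these 3 genes describe the fit and carry no direction.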

Other observations

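Kcna1, a delayed rectifier of nerve and heart, was named after its values were seen. It had a wider range over the arrays than Kcnq1, with levels of -6.27 and -3.97 in siScr and -4.99 and -2.61 in siErbB4. The lowest of these, on siScr replicate 1, was below that of Kcnj3 on the same array (-6.17), not far above the floor. No normexp value is given for Kcna1. Its replicate difference was 2.34 (SE 0.62, limma adjusted p 0.115) and its treatment difference 1.32 (SE 1.17), at 1.28 in replicate 1 and 1.37 in replicate 2; neither was called, though the replicate difference was with treatment as a term (limma adjusted p 0.0206). Kcne1l, a further small beta subunit, had a replicate difference of -0.97 (SE 0.17, limma adjusted p 0.0553, and 0.0314 and called with treatment as a term), opposite in sign to those of Kcne1 and Kcne2.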
